A study of Mus musculus with 28 samples.

Results

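The far contacts of the Gria1 insertion site on mouse chromosome 11 were described here, that is, all restriction fragments of chromosome 11 lying more than 1 Mb from the viewpoint in 4 libraries of 4C-seq, a sequencing assay of chromosome contacts. The viewpoint was taken as the fragment with the highest value, chr11:56910361-56910414 (mm10), and was the same in every library. The rule gave 1249 fragments with reads in at least 1 of the 4 libraries, out of 2940 fragments with reads on chromosome 11 in these libraries and 99194 in the 13 libraries of the series analysed here. The cells, undifferentiated E14Tg2a embryonic stem cells of the mouse, carried no insert (WT) or a part of the poised enhancer of Sox1 (PE Sox1) knocked into the Gria1 topologically associating domain. The inserts were its transcription factor binding sites (TFBS), its CpG island (CGI), or both (TFBS+CGI). One label names 2i+LIF for the culture, whereas the growth protocol describes serum with LIF. There was 1 library per genotype, and the labels used here do not say whether a line was 1 clone. Differences below are therefore between libraries, with no replicate check and no test between genotypes. Cell identity cannot be read from contact data and was not checked.

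In 4C-seq, crosslinked chromatin is cut, neighbouring ends are ligated, and everything joined to the viewpoint is amplified and read. Contacts along a chromosome fall steeply with distance, and beyond the local domain they mix loops, compartment contacts and chance encounters, each fragment being sampled by few ligation events. A single ligation amplified by PCR can therefore give a tall isolated fragment. Gria1, whose start lies 101 kb after the viewpoint, encodes an AMPA-type glutamate receptor subunit used at synapses.

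Chromatin was first cut with NlaIII, whose site is CATG, a palindrome that reads alike on both strands. The sequences below show how far fragments met gene starts. They are the 250 bases before 4 gene starts (RefSeq, GRCm38.p6, the same assembly as mm10), chosen because a far fragment with reads reached into each, with CATG in capitals and each read 5′ to 3′ on the strand of its gene. They are Zfp672 (chr11:58330340-58330589, minus strand), Mrpl22 (chr11:58171414-58171663, plus strand), Olfr325 (chr11:58580587-58580836, plus strand) and Txndc17 (chr11:72207304-72207553, plus strand). The Mrpl22 window lies inside that gene's annotated span (chr11:58170043-58179580), so it is not upstream of the span. The Zfp672 window overlaps the end of its span (chr11:58315114-58330368), where a minus-strand gene starts.
Zfp672: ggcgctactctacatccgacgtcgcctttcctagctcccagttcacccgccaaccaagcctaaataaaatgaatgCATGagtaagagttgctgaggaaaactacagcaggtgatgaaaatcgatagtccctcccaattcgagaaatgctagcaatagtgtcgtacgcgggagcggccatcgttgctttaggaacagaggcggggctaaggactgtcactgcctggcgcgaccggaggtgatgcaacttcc
Mrpl22: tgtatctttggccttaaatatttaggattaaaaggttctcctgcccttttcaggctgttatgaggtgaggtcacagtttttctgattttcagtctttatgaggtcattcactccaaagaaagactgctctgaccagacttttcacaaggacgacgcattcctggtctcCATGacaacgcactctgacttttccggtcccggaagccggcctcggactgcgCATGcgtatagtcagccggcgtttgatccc
Olfr325: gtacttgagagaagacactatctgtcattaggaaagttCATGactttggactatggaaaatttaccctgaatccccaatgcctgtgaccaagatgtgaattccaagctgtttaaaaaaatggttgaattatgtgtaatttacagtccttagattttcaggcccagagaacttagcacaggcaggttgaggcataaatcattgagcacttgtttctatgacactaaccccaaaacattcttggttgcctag
Txndc17: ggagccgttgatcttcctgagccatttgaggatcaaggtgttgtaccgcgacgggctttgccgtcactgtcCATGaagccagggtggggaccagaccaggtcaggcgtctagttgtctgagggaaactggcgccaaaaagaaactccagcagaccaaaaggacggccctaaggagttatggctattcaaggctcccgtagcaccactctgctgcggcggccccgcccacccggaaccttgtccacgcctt
Each capital run is an NlaIII site. In the Mrpl22 window the fragment with reads ends at the first run, and no far fragment with reads borders the second. A fragment end lying in overlapping windows was counted once per window. All 6 ends counted inside such windows were directly followed by CATG, and both of the 2 fragment starts were directly preceded by it. The Zfp672 window, at a zinc finger protein gene, held 171 bases of a 468-base fragment with 22 WT, 816 TFBS, 2 CGI and 5 TFBS+CGI reads. The Mrpl22 window, at a mitochondrial ribosomal protein gene, held 168 bases of a fragment with 5, 207, 0 and 0 reads in the same order. The Olfr325 window, at an olfactory receptor gene, held 38 bases of a fragment with 0, 2, 1 and 89 reads, and the Txndc17 window, at a thioredoxin-related gene, held 175 bases of a fragment with 33 reads in TFBS only. In 3 of these 4 windows, which are a choice out of 8, the reads were highest in the TFBS library, and in the Olfr325 window in the TFBS+CGI library. TFBS also had reads on the most far fragments, 842 of 1249, so this is no result about gene starts. Of all 2272 windows of this length beyond 1 Mb, 1131 (49.8%) held CATG, and 8 overlapped a far fragment with reads. Seen from the fragments, 6 of 1249 (0.480%, 95% Wilson interval 0.220% to 1.04%) overlapped such a window. For comparison, 9 libraries of other viewpoints, on chromosomes 17 or 18, were used. They are 5 ESC libraries, of the Six2 promoter and PE Six3 in WT and in cells lacking the boundary between Six3 and Six2 (del36) and of the Gata6 insertion site with the CGI insert. The other 4 are of the Gata6 promoter in anterior neural progenitor cells (AntNPC) at day 5, as WT or with the TFBS, CGI or TFBS+CGI insert in the Gata6 domain. In them 49 of 3905 chromosome 11 fragments in the same range did (1.25%, 0.950% to 1.65%).

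Total reads ranged from 2313468 (TFBS) to 7615835 (TFBS+CGI), with 7585737 for WT and 6373936 for CGI, of which 92.3% to 98.9% lay on chromosome 11. Most of them were the viewpoint fragment itself (81.8% to 97.6% of chromosome 11 reads). The fragment chr8:12430220-12432553 was chosen as the tallest near Sox1 in the TFBS library, so its high TFBS value follows from the choice. Whether it lies in PE Sox1 was not checked. It had 22 WT reads, 709 TFBS reads, no CGI read and 3 reads in the library labelled TFBS+CGI. That library thus had fewer reads there than WT. These values cannot check a genotype, and that of the TFBS+CGI library is used here as labelled.

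Far contacts were a small part of the chromosome 11 signal. They held 58775 WT reads on 479 fragments, 73107 TFBS reads on 842, 31396 CGI reads on 297 and 154015 TFBS+CGI reads on 509. The share of chromosome 11 reads was highest for TFBS at 3.42% (95% Wilson interval 3.40% to 3.45%) and lowest for CGI at 0.498% (0.493% to 0.504%). It was 0.810% for WT (0.804% to 0.817%) and 2.09% for TFBS+CGI (2.08% to 2.10%). The order was TFBS, TFBS+CGI, WT and CGI, with ratios to WT of 4.22 (TFBS), 2.58 (TFBS+CGI) and 0.615 (the CGI library). These intervals cover counting error only, since PCR reads without molecular identifiers are not independent molecules.

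This order was the reverse of that for the viewpoint fragment. It took 81.8% (TFBS), 88.5% (TFBS+CGI), 94.7% (WT) and 97.6% (CGI) of chromosome 11 reads. With the viewpoint and 10 kb on each side left out, far reads made up 36.8% of the remaining WT reads of chromosome 11 (36.5% to 37.0%) and 35.9% for TFBS (35.7% to 36.1%). The values were 37.7% for CGI (37.3% to 38.0%) and 27.0% for TFBS+CGI (26.8% to 27.1%). Ratios to WT were then 0.978, 1.02 and 0.734 for TFBS, CGI and TFBS+CGI, so that TFBS and CGI lay within a few percent of WT and TFBS+CGI lay below it. Counted as fragments, 37.0%, 38.6%, 32.5% and 34.8% of those with reads on chromosome 11 were far ones, in the order WT, TFBS, CGI, TFBS+CGI. In the 4 libraries with viewpoints on chromosome 17 the corresponding share of reads without the near 10 kb was 23.5% to 28.4%. In the 4 Gata6 promoter libraries on chromosome 18, which are of AntNPC and not ESC, it was 27.8% to 41.5%. The ESC library of the Gata6 insertion site, also on chromosome 18, was left out of this range.

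The limit of 1 Mb fell within a continuous profile. Between 900 and 1000 kb there were 2181 WT, 3120 TFBS, 92 CGI and 6737 TFBS+CGI reads on 14, 26, 13 and 17 fragments, and between 1000 and 1100 kb 1872, 3165, 89 and 3654 reads on 14, 17, 4 and 12 fragments. The last fragment inside the limit, at 998 kb, had 691, 4, 3 and 1 reads in the order WT, TFBS, CGI, TFBS+CGI.

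Far reads were spread very unevenly over fragments, most of all in CGI. The median far fragment had 10 WT, 5 TFBS, 3 CGI or 21 TFBS+CGI reads, and the tallest 2037, 2861, 7088 or 4699. The 10 tallest fragments held 83.9% of the far reads of CGI, against 27.8% for WT, 25.8% for TFBS and 22.9% for TFBS+CGI. Fragments with a single read made up 20.0%, 26.5%, 38.0% and 28.5% in the order WT, TFBS, CGI, TFBS+CGI. CGI was thus the library whose far signal rested on fewest fragments, and only 90 of its 297 had at least 10 reads, against 243, 328 and 274 in WT, TFBS and TFBS+CGI.

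By distance, the nearest bins on both sides held the most reads in TFBS, CGI and TFBS+CGI, and less clearly so in WT. Bins of 1 Mb were counted outward from the viewpoint, 53 toward the start of the chromosome (before) and 65 toward its end (after). The 1 to 2 Mb pair of bins held 60.3% of far CGI reads, 29.4% of far TFBS+CGI reads, 23.9% for TFBS and 12.2% for WT. The before bin, with 12 protein-coding genes including the glycine receptor gene Glra1, had 3128 WT, 11717 TFBS, 8028 CGI and 24616 TFBS+CGI reads. The after bin, with 43 genes including an olfactory receptor cluster, had 4041, 5753, 10898 and 20590. Both were among the 3 bins with most reads in all 4 libraries, but in WT the before bin, at 5.32% of far reads, lay below the bin 2 to 3 Mb after (5.69%) and near the bin 32 to 33 Mb before (4.81%).

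**Figure D1:**
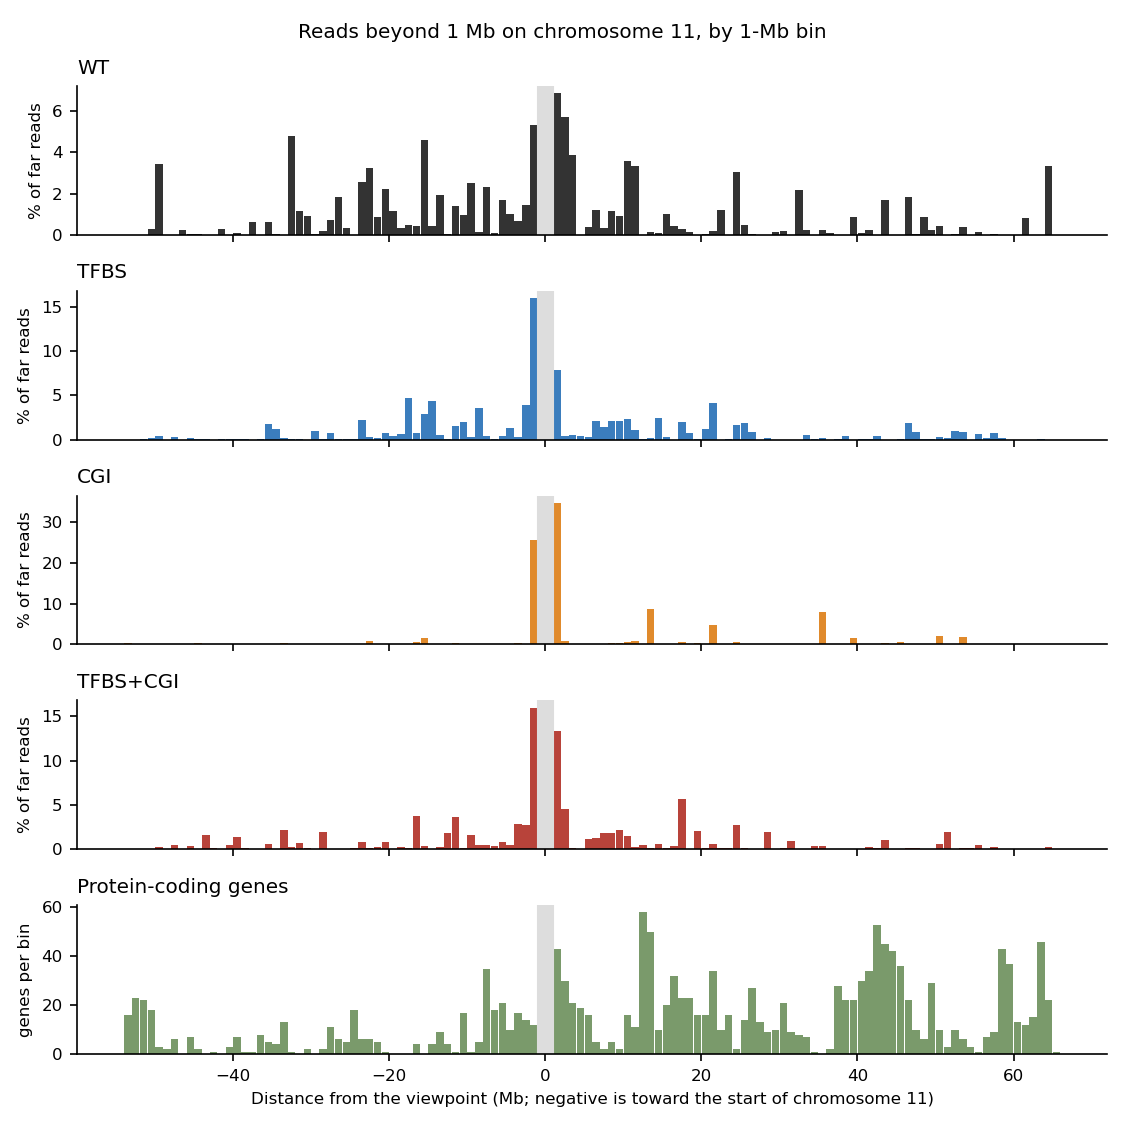
Share of far reads (% of the library's reads beyond 1 Mb) in each 1-Mb bin by distance from the viewpoint (Mb), in 1 panel per library with its own vertical scale, over the number of protein-coding genes per bin; the grey band is the 2 Mb around the viewpoint that was left out. The bins at 1 to 2 Mb are the highest pair in TFBS, CGI and TFBS+CGI and less marked in WT, and beyond them CGI shows a few isolated bins where the other libraries show many.

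In fragments, the decline with distance was much alike in the 4 libraries. From 25.7% (TFBS+CGI) to 78.8% (CGI) of far fragments had at least 10 times the reads in another Gria1 library. The lists compared are thus not independent, and no fragment slope without such fragments was computed. Fragments at 1 to 2 Mb made up 15.9% to 18.7% of far fragments in all 4, those at 2 to 5 Mb 9.09% to 10.5%, and those beyond 30 Mb 24.0% to 27.3%. Per bin, WT fell from 38 fragments at 1 to 2 Mb to 7.67 at 2 to 5 Mb, 5.05 at 10 to 20 Mb and 2.10 beyond 30 Mb. TFBS fell from 71.5 to 14.7, 8.50 and 3.37 over the same ranges. CGI went from 27.5 to 1.28 and TFBS+CGI from 47.5 to 2.32 between the first and the last range. On logarithmic scales of fragments and distance, from 1 to 30 Mb, the slope ran from -0.67 (WT) and -0.64 (TFBS) to -0.62 (TFBS+CGI) and -0.56 (the CGI library, where 27 of 29 steps had reads and the rest were left out). Summed over the 9 libraries of other viewpoints, chromosome 11 fragments had no such decline. The sums were 45.5 per bin at 1 to 2 Mb and 47.5 beyond 30 Mb, a level not comparable with that of 1 library. Their slope was -0.083 (-0.052 in the ESC and -0.11 in the AntNPC libraries).

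In reads, the decline differed between libraries and depended on single fragments. The slope was steepest for TFBS+CGI at -1.23, then -1.02 for CGI, -0.75 for WT and -0.59 for TFBS, and it was close to 0 over chromosome 11 in the libraries of other viewpoints. It lay at -1.37 to -0.98 for the chromosome 17 viewpoints and -1.21 to -0.64 for the Gata6 promoter in AntNPC on chromosome 18, over their own chromosomes. The Gata6 insertion-site library was again left out. With the tallest fragment of every bin left out, WT moved to -1.36, TFBS to -1.31, CGI to -1.56 and TFBS+CGI to -1.51. From 2 to 30 Mb the slope was -0.33 in TFBS and -0.40 in CGI. The order of the read slopes between genotypes therefore was not stable. Reads beyond 10 Mb were 64.4% of far WT reads and 37.1% of far CGI reads, with TFBS at 56.4% and TFBS+CGI at 47.9%, and the farthest fragments lay near the last bins, more than 51 Mb before and 64 Mb after the viewpoint in every library. Fragments were split about evenly between sides, with 50.8% to 53.9% before the viewpoint, whereas CGI had 31.7% of its reads there against 49.3% to 54.7% in the others.

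**Figure D2:**
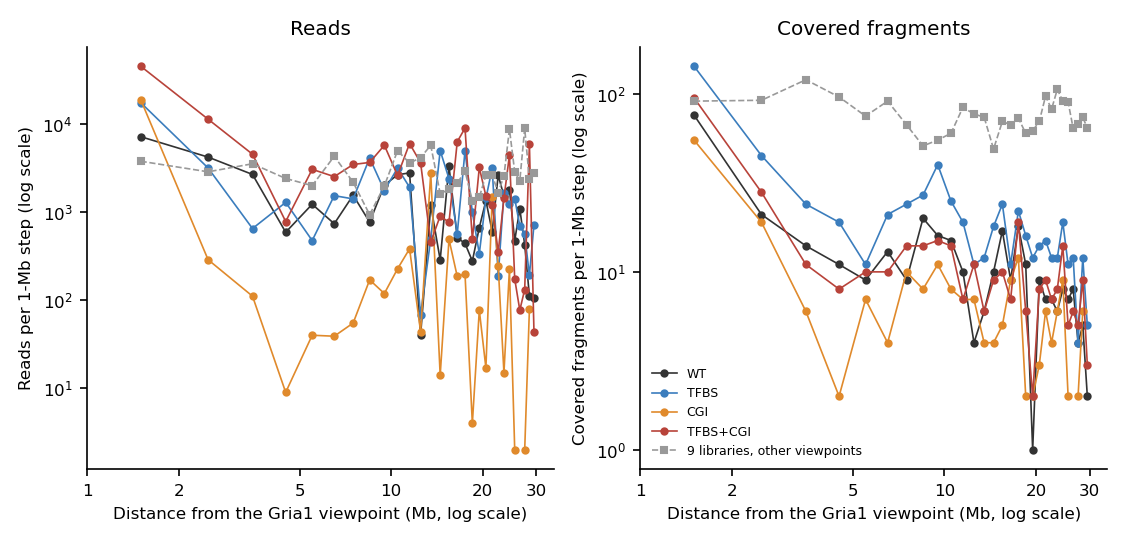
Reads (left) and fragments with reads (right) per 1-Mb step, both sides summed, against distance from the viewpoint (Mb), all axes logarithmic; coloured lines are the 4 Gria1 libraries and the dashed grey line sums 9 libraries whose viewpoints lie on other chromosomes. Fragments fall with distance in the 4 libraries at a slope of -0.56 to -0.67, while the grey line is nearly flat and read values jump from step to step.

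Bins with far reads were not richer in genes than those without. The 118 bins held 1595 protein-coding genes, with a median of 10 per bin and a maximum of 58. WT reads fell in 104 bins, TFBS reads in 114, CGI reads in 93 and TFBS+CGI reads in 105, and 82 bins had reads in all 4. The median number of genes in bins with reads was 9 in each library, and in the few bins without reads it was 14, 18, 15 and 22 in the order WT, TFBS, CGI, TFBS+CGI. Across bins, whose values share the library and the trend with distance, Spearman's rho between genes and far fragments was -0.17, -0.17, -0.091 and -0.17 (n = 118 bins). Chromosome 11 fragments in the libraries of other viewpoints went the opposite way, with a rho of 0.66 (0.60 in the 5 ESC libraries and 0.58 in the 4 AntNPC libraries). In the 39 bins richest in genes these libraries had 43.4% of their fragments, whereas the Gria1 libraries had 29.6% to 33.0%. In reads these bins held 52.0% in the libraries of other viewpoints, 53.2% in CGI, 33.2% in WT, 32.3% in TFBS+CGI and 24.5% in TFBS. By fragments no Gria1 library thus leaned to gene-rich bins as the other viewpoints did, whereas by reads CGI did, with 83.9% of its far reads on 10 fragments. Inside gene spans lay 39.7% (35.4% to 44.1%), 42.3%, 41.8% and 39.5% of far fragments, where gene spans cover 47.4% of the length. In the libraries of other viewpoints 50.7% (49.1% to 52.2%) lay in genes.

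**Figure D3:**
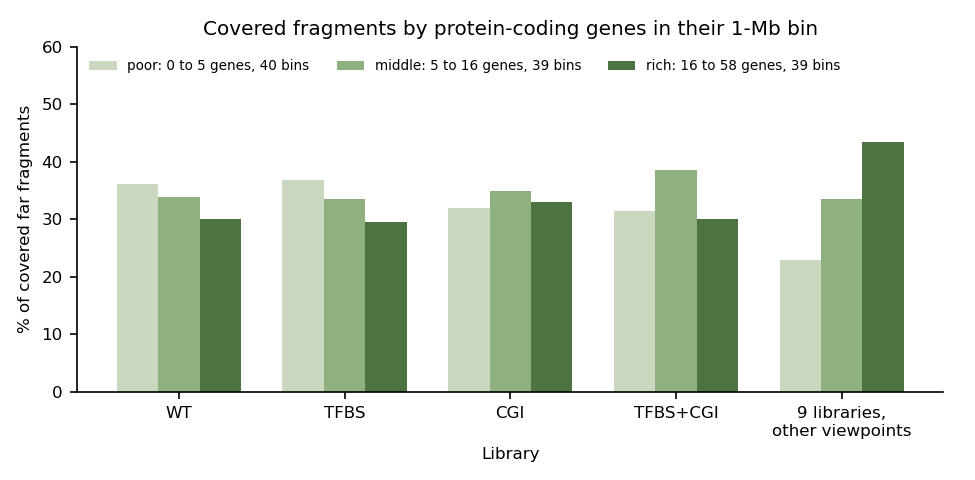
Share of fragments with reads beyond 1 Mb (% of fragments) in gene-poor, middle and gene-rich bins for each Gria1 library and for the 9 libraries of other viewpoints summed; the 3 classes hold 40, 39 and 39 bins. The gene-rich class holds 43.4% of fragments in the libraries of other viewpoints and 29.6% to 33.0% in the Gria1 libraries.

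The tallest fragments were different ones in each library. In WT a tall fragment lay inside Myh2, a skeletal muscle myosin heavy chain gene, 10.3 Mb after the viewpoint, with 1945 WT, 7 TFBS, 1 CGI and 1 TFBS+CGI reads, and one inside Asic2, an acid-sensing ion channel gene, with 1545, 7, 0 and 0. In TFBS a fragment nearest to Slc46a1, the proton-coupled folate transporter gene, 21.6 Mb after the viewpoint, had 80, 2346, 1 and 10 reads. A TFBS fragment 34.5 kb from Glra1, the glycine receptor gene, had 72, 2316, 0 and 6. WT was thus the library with most of the remaining reads at the tall TFBS fragments.

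In CGI 1 fragment inside the olfactory receptor gene Olfr330, 1.62 Mb after the viewpoint, had 1, 8, 7088 and 43 reads in the order WT, TFBS, CGI, TFBS+CGI and made up 22.6% of far reads. A fragment 68.8 kb from Glra1 had 1, 7, 5879 and 52 reads and made up a further 18.7%. In TFBS+CGI the tallest lay inside Rap1gap2, a gene for a GTPase-activating protein of Rap1, with 0, 12, 95 and 4699 reads. The next lay inside Mrpl22, with 0, 7, 80 and 4053 reads, and inside Anxa6, a gene for a calcium-dependent membrane-binding annexin, with 0, 6, 68 and 4043. TFBS+CGI and CGI thus each had most of the remaining reads at the other's tall fragments.

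**Figure D4:**
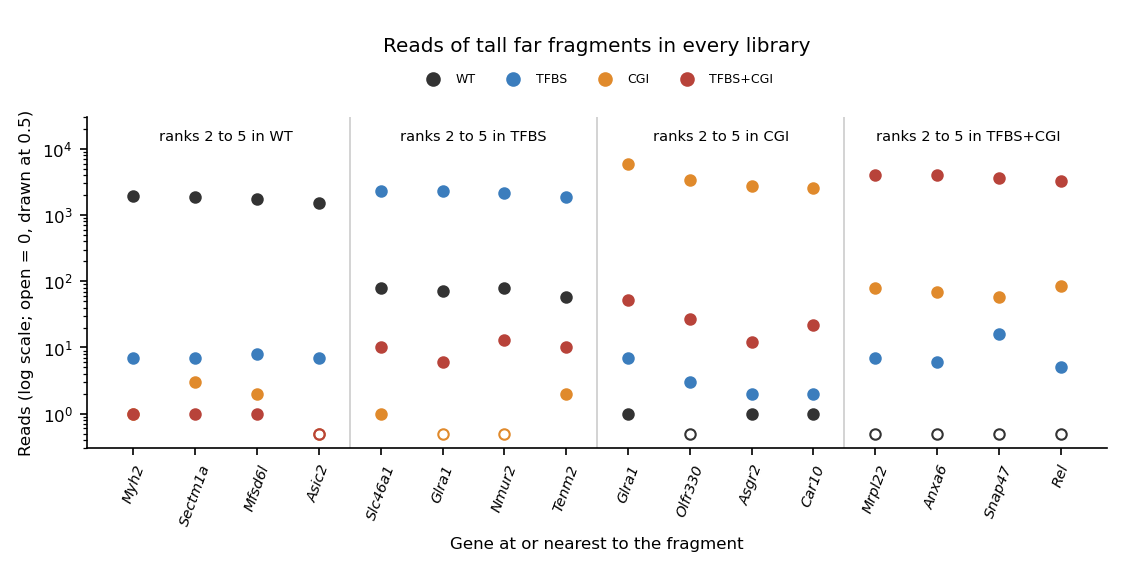
Reads (log scale) in all 4 libraries of the far fragments ranked 2 to 5 by reads in each library, named by the gene they lie in or nearest to; open points are 0 reads. These fragments have 1545 or more reads in 1 library and at most 85 in any other, with the second level held by WT at the TFBS fragments and by CGI and TFBS+CGI at each other's.

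Most far fragments had reads in 1 library only, but these held a small part of the far reads. Of the 1249 far fragments 677 (54.2%) had reads in 1 library, 303 in 2, 232 in 3 and 37 in all 4. Fragments with reads in 1 library only held 10.4% of far WT reads, 4.88% for TFBS, 1.24% for CGI and 2.21% for TFBS+CGI. At least 10 reads were reached in 1 library by 662 of 792 fragments (83.6%), which could have fewer reads elsewhere. The others reached this in 2 libraries (117), in 3 (13) or in all 4 (0). The nearest to such a fragment lay 54.6 kb from Larp1, an RNA-binding protein gene, at 1.01 Mb, with 344 WT, 9 TFBS, 37 CGI and 2249 TFBS+CGI reads. WT and TFBS shared 323 fragments, which are 67.4% of those of WT and 38.4% of those of TFBS. CGI and TFBS+CGI shared 228, which are 76.8% and 44.8% of theirs, whereas WT and CGI shared 69 (14.4% and 23.2%). At 10 reads the 2 pairs with most sharing were again CGI with TFBS+CGI, at 67 fragments, and WT with TFBS, at 61, while the other 4 pairs shared 5 to 10.

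Shared fragments did not rank alike in reads. Over the fragments that a pair shares, Spearman's rho of their reads was -0.29 for WT and TFBS, -0.46 for TFBS and TFBS+CGI and 0.48 for CGI and TFBS+CGI, with the other 3 pairs from -0.14 to 0.075. Fragments tall in 1 library often recurred in another at a small share of their reads. All of the 50 tallest TFBS far fragments recurred in WT, at a median of 2.99% of their TFBS reads, and the 200 tallest TFBS fragments off chromosome 11 did so at 2.94%. All of the 50 tallest TFBS+CGI far fragments recurred in CGI at a median of 1.63%, against 1.56% off chromosome 11. Of the 50 tallest in WT 44 recurred in TFBS, and the median over all 50 was 0.403%, against 0.357% off chromosome 11. The medians within and outside the chromosome of the viewpoint were close in these 3 pairs and apart for fragments tall in CGI. The 50 tallest of CGI, which reach down to 38 reads, had a median in TFBS+CGI of 72.1% of their CGI reads, against 1.01% off chromosome 11, and in TFBS of 2.69% against 0.361%. The quartiles of these far fragments in TFBS+CGI were 0.854% and 4959%, so the median there stands between widely different values. Whether the low values are contacts in the second library was not tested.

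Far fragments with at least 10 times the reads in another Gria1 library numbered 234 of those in CGI (78.8%), 200 in WT (41.8%), 278 in TFBS (33.0%) and 131 in TFBS+CGI (25.7%). They held 7.95% of the far reads of CGI, 3.41% for WT, 1.12% for TFBS and less for TFBS+CGI, so the shares of chromosome 11 reads rest little on them, and the counts of fragments rest on them more. Without them 279, 564, 63 and 378 fragments remained, and pairs shared 1 to 17 of these. WT and TFBS then shared 17, which are 6.09% and 3.01% of theirs, and CGI and TFBS+CGI shared 4. A fragment stays shared under this rule only where no Gria1 library has 10 times its reads in either of the pair. Less sharing is thus partly built into the filter.

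By 1-Mb bin the libraries were moderately alike. Spearman's rho of reads over 118 bins ran from 0.32 for TFBS and CGI to 0.70 for CGI and TFBS+CGI, with a median of 0.42 over the 6 pairs, and for fragments from 0.55 to 0.75 with a median of 0.69. The bins share distance from the viewpoint, and with reads divided by the value for their distance the median was 0.23. Without the fragments 10 times higher elsewhere it was 0.25 for reads and 0.25 for fragments, but that filter uses the differences between libraries themselves. Among the 10 bins with most reads, which held 44.8%, 52.3%, 89.7% and 57.5% of far reads in the order WT, TFBS, CGI, TFBS+CGI, pairs had 2 to 4 in common.

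Bin by bin, TFBS and TFBS+CGI had ratios to WT in both directions, and CGI had mostly lower ones. Of 102 bins with reads in both, the share of far reads was at least 2-fold higher in TFBS than in WT in 43 (42.2%) and at least 2-fold lower in 35 (34.3%), with a median log2 ratio of 0.16. For TFBS+CGI it was higher in 32 of 97 (33.0%) and lower in 42 (43.3%), with a median of -0.34. For CGI it was higher in 19 of 85 (22.4%) and lower in 54 (63.5%), with a median of -2.11. The CGI shares elsewhere are low beside the bins at 1 to 2 Mb, which took 60.3% of its far reads. Bins with the widest ratios rested on very few reads in 1 of the libraries compared, so their reads are given in place of folds, in the order WT, TFBS, CGI, TFBS+CGI. The bin 51 to 52 Mb after the viewpoint had 2, 172, 36 and 3056 reads, and a fragment inside Cep112, a centrosomal protein gene, held 99.5% of the last value. The bin 28 to 29 Mb after, with the T-box genes Tbx2 and Tbx4, had 2, 138, 42 and 2964, most of the last at Bcas3. The bin 13 to 14 Mb after was the CGI counterpart, with 67, 94, 2761 and 139 reads, nearly all of the CGI reads on 1 fragment near Asgr2, an asialoglycoprotein receptor gene. Bins highest in WT were of the same kind. The bin 3 to 4 Mb after had 2274, 403, 1 and 166 reads, and the bin 32 to 33 Mb after, with the BMP antagonist gene Nog, had 1284, 7, 2 and 1. The bin 37 to 38 Mb before, whose only protein-coding gene is the homeobox gene Meis1, had 360, 9, 1 and 2, none of them within 5 kb of that gene.

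Few genes beyond 1 Mb had reads. Over the gene span with 5 kb on each side, 183 of 1602 protein-coding genes (11.4%) had a WT read, 288 (18.0%) a TFBS read, 141 (8.80%) a CGI read and 182 (11.4%) a TFBS+CGI read. With at least 10 reads the counts, in the same order, were 109 (6.80%), 147 (9.18%), 48 (3.00%) and 114 (7.12%). In all 4 libraries 50 genes (3.12%) had a read and 14 (0.874%) had at least 10. The 50 were long and near, with a median length of 49.5 kb and a median distance of 4.35 Mb, against 11.6 kb and 38.0 Mb for the 1227 genes without reads in any library.

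The 14 genes with at least 10 reads everywhere included Glra1, Gm2a, G3bp1, Rapgef6, Sgcd and Tenm2 before the viewpoint and Gemin5, Zfp672, Olfr332, Dnah9, Glp2r, Rap1gap2 and Asic2 after it. Low counts here, and among the genes with a read in every library, can lie near the recurrence levels given above. Gemin5 had 59 WT, 1760 TFBS, 80 CGI and 4063 TFBS+CGI reads, and Glp2r had 39, 1169, 30 and 1904. Whether such low counts are contacts in those libraries was not tested. Asic2, which spans 1088 kb at 24.5 Mb, had 1798 WT reads on 6 fragments, 1206 TFBS reads on 17, 222 CGI reads on 6 and 4252 TFBS+CGI reads on 13. Tenm2, a teneurin adhesion receptor gene at 20.3 Mb, had 1318, 792, 16 and 1276 reads, and Sgcd, the delta-sarcoglycan gene at 9.43 Mb, had 1479, 218, 27 and 2392. These long genes gathered reads from several fragments in each library, except Tenm2 in CGI, with 2 fragments. Glra1, at 1.35 Mb, had 215, 2745, 42 and 2290 reads on 7, 14, 7 and 11 fragments. Olfr332, by contrast, had 850, 11, 50 and 2814 reads, and these came from 1 fragment in every library but TFBS, which had 2.

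Of all 1602 protein-coding genes beyond 1 Mb, 375 (23.4%) had reads in any library, and the gene lists were read against this share and those above. Shares were not adjusted for gene length or distance. Median lengths were 5.9 kb for developmental regulators, 28.2 kb for neurotransmitter receptors and 3.4 kb for ribosomal proteins. They were 4.0 kb for keratin, 25.5 kb for muscle myosin and 0.954 kb for olfactory receptor genes, against 14.2 kb over all genes. Of 33 developmental regulator genes beyond 1 Mb, 3 (9.09%) had reads in any library and none in all 4, with 2 of 33 in each library. They were Wnt3a, a Wnt ligand gene, with 1281 WT, 4 TFBS, 0 CGI and 48 TFBS+CGI reads, Wnt9a, another, with 2, 55, 1 and 0, and Ebf1, a transcription factor gene, with 0, 0, 2 and 138. Wnt3a thus had at least 10 reads in WT and TFBS+CGI, and the other two genes in 1 library each. Of 9 neurotransmitter receptor genes, 4 (44.4%) had reads in any library, with 3 in WT, 4 in TFBS and 1 in each of the CGI and TFBS+CGI libraries. Glra1 had most, and the GABA-A receptor subunit genes Gabrb2 and Gabra6 had 63 and 41 TFBS reads, 1 WT read each and none in the other libraries. None of 7 ribosomal protein genes had a read, and of 50 keratin and keratin-associated genes 5 did in any library. Krt34, a hair keratin gene with most of these, had 0 WT, 1 TFBS, 9 CGI and 637 TFBS+CGI reads.

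Olfactory receptor genes formed the longest list. Of 83, 32 (38.6%) had reads in any library, 16 in each of the WT and CGI libraries, 23 in TFBS, 22 in TFBS+CGI, and 4 in all 4. Part of these genes lies in the bin 1 to 2 Mb after the viewpoint, among the 3 bins with most reads in all 4 libraries, and neighbouring genes share fragments within 5 kb. Olfr330 had 1 WT, 23 TFBS, 10412 CGI and 70 TFBS+CGI reads. Olfr332, Olfr329 and Olfr318 were the others with reads in all 4, and Olfr329 had 8, 400, 7 and 1 reads while Olfr318 had 1, 20, 24 and 1474. Each of these was thus high in 1 or, for Olfr332, in a pair of libraries. Of 6 muscle myosin heavy chain genes, which lie in 1 cluster, 3 had reads, among them Myh2 with 1945, 7, 68 and 2 and Myh4 with 29, 3, 8 and 461. The median gene had 0 reads in every list and library, as over all 1602 genes, except a median of 1 read for the myosin genes in TFBS+CGI.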

How the data were processed

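The 4 libraries are 4C-seq of the Gria1 insertion site, and 9 libraries of other viewpoints served as background. The authors deposited RPM values per fragment. The submitters' processing notes name HISAT2 and mm10; read filters and the HISAT2 version were not given in the sources used here. Every deposited RPM value was a whole multiple of the library's smallest (tolerance 0.1), so whole reads were recovered (100%); no count test was run, with 1 library per group. Shares have 95% Wilson intervals. Slopes are least-squares fits of log reads or fragments on log distance, with both sides summed per 1-Mb bin, checked on simulated data. Genes are from a RefSeq table of GRCm38.p6, without strand. The rule for names takes the genes at the 5 tallest fragments per library, at the bins with the highest share or widest ratio to WT, at fragments with 10 reads in all libraries (0 were found) and, in each list, those with most reads; the text gives examples, and some of these are not reported here. The 14 genes with at least 10 reads everywhere were added after seeing their values. Members and lists were chosen with earlier results of these data known. Python 3.11.15, numpy 2.4.6, pandas 2.3.3, scipy 1.17.1 and matplotlib 3.10.9 were used.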

Additional observations from a re-analysis of the deposited data

How the results depend on the processing

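With 1 library per genotype, no value has a replicate check. No paired analysis was possible because each group holds 1 library. Of the values under an alternative, 38 stayed within the limits set (the Wilson interval of a share, 1.5 times for a slope, 0.1 for a correlation) and 37 did not. Values are in the order WT, TFBS, CGI, TFBS+CGI. The far share of chromosome 11 reads was 36.8%, 35.9%, 37.7% and 27.0% without the near 10 kb, 0.711%, 2.61%, 0.198% and 1.48% beyond 2 Mb, 0.832%, 3.57%, 0.400% and 2.14% with reads capped at the 99th percentile, and 37.0%, 38.6%, 32.5% and 34.8% as fragments. It was 0.801% in WT and 0.488% in CGI without fragments at or under the level that the off-chromosome recurrence gives. The read slope was -1.36 in WT, -1.31 in TFBS and -1.56 in CGI without the tallest fragment of every bin, -2.31 in CGI from 1 to 10 Mb, and -0.56 in CGI and -0.62 in TFBS+CGI for fragments. The gene content correlation was -0.17 in TFBS for fragments, and within 30 Mb -0.18 in TFBS and -0.050 in TFBS+CGI. The median agreement was 0.69 for fragments and 0.23 after division by distance. Alternatives chosen after seeing the data left out fragments 10 times higher elsewhere, giving shares of 0.783% in WT, 3.38% in TFBS and 0.459% in CGI, a gene content correlation of 0.073 in CGI, which was -0.070 before and so changed sign, and a median agreement of 0.25 for reads and for fragments. From 2 to 30 Mb, also added, the slope was -0.33 in TFBS and -0.40 in CGI. The cause of these changes was not tested. Leaving out fragments 10 times higher elsewhere uses the differences between libraries themselves, so the agreement after it is no separate check. Depth limits single fragments, since 20.0% to 38.0% of far fragments have 1 read.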
